A study of Mus musculus with 20 samples.

Results

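The Polycomb group genes described here are the 38 rows of the deposited expression table whose symbols encode subunits or close partners of the Polycomb complexes, out of 13283 symbols in all. The rule used the symbols and no measured value. Polycomb complexes keep developmental genes silent by writing and reading marks on histones. PRC2 methylates a lysine in the tail of histone H3, PRC1 attaches ubiquitin to histone H2A, and the PR-DUB enzyme takes that ubiquitin off again. Embryonic stem cells hold many lineage genes under both marks, and the makeup of PRC1 changes as stem cells differentiate.

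Transcripts were measured by bulk mRNA sequencing in mouse embryonic stem cells of strain C57BL/6, labelled male and cultured in medium with FCS, LIF and 2i, in 20 libraries. Trim71 encodes an RNA-binding ubiquitin ligase of stem cells. One system set 4 libraries of cells with a floxed Trim71 gene (Trim71-cond, genotype label Trimfl/fl) against 4 libraries of deleted cells (Trim71-KO), and the codes 1A, 2B, 3A and 3B recur in each group. The other system had 3 WT clones (C5, C7, C16), 3 R595H/+ clones (C15, C21, C23) and 3 R595H/R595H clones (C14, C20, C24), 12 libraries in all. C16, C15 and C14 had a library on each of 2 dates, and the libraries of one clone were averaged. The labels do not say how the deletion was made, nor whether the conditional libraries come from separate cultures, so p-values there reflect only library-to-library spread, possibly technical. The title of the series sets the deletion beside the homozygous change.

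Values are on a log2 scale and were scaled between libraries before deposit, and library medians lay between 5.15 and 5.20. Base 2 was inferred, so each fold printed here rests on it. Depth is unknown. Trim71 was 2.80-fold lower in Trim71-KO (7.47 ± 0.05 against 8.95 ± 0.04, SD, n = 4 each; two-sided exact permutation p = 0.0286, the smallest possible). It was 1.53-fold higher in R595H/R595H than in WT (10.11 ± 0.10 against 9.50 ± 0.03, SD, n = 3 each; exact permutation p = 0.1, the smallest possible). Of 8 stem cell markers 7 passed the minimum level for testing, with Pou5f1 between 8.74 and 8.98 and Nanog between 10.28 and 10.67 as group means, and Utf1, between 3.01 and 3.13, did not. Of 7 fibroblast markers 6 were not in the table used here, and Thy1 stood at 2.00 or less as a group mean. The mean of 4 Y-linked genes lay between 5.65 and 6.20 in the conditional libraries, but between 3.89 and 6.00 among WT libraries, 4.02 and 5.61 among R595H/+ libraries and 3.72 and 4.36 among R595H/R595H libraries. This split by clone. In WT, C5 stood at 6.00 and the other clones at 4.31 or less. In R595H/+, C23 stood at 4.02 and the other clones at 5.22 or more. Every R595H/R595H clone was low, so the Y-linked level was not balanced between genotypes. The libraries of R595H/R595H C14 differed by a median of only 0.0221 over the Polycomb genes, against 0.0833 for WT C16 and 0.106 for R595H/+ C15. Whether C14 was one library deposited in 2 columns was not tested. It was counted once, except in the alternative fit of all 12 clonal libraries, which takes both. In bulk samples fewer cells of a type and less RNA per cell cannot be told apart.

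Levels of the Polycomb transcripts were uneven within each complex. Divided by the merged exon length in GENCODE vM21, levels of the PRC2 core were led by Suz12, the scaffold subunit, at 8.49 per kilobase (log2) in Trim71-cond and 8.33 in WT. Mtf2, a Polycomb-like subunit that brings PRC2 to CpG islands, followed at 8.17 and 8.28. The histone-binding subunit Rbbp7 stood at 7.40 and 7.51, and Eed, which reads the methyl mark that PRC2 writes, at 6.92 and 7.04. At the other end were the Mtf2 relatives Phf1 (0.51 and 0.41) and Phf19 (-0.49 and -0.57).

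Paralogs stood at unequal levels. Rnf2, which encodes the RING1B ubiquitin ligase, stood 30.9-fold above its paralog Ring1 per kilobase in Trim71-cond and 28.5-fold above it in WT. Ezh2, the main methyltransferase of dividing cells, stood 4.69-fold and 6.34-fold above Ezh1, its paralog of resting cells. Among the PCGF proteins, which decide the type of PRC1, Pcgf6 was the highest per kilobase, 3.87-fold and 4.39-fold above Pcgf2. Of the chromodomain readers, Cbx7, known as the leading one in stem cells, stood 3.78-fold and 3.24-fold above Cbx6, and 1.46-fold and 1.63-fold above Cbx2. Phc1 stood 11.8-fold and 10.1-fold above Phc3, both polymerizing subunits of canonical PRC1. The variant subunit Rybp was 1.53-fold and 1.55-fold above Yaf2, Bcor was 8.40-fold and 9.16-fold above Bcorl1, and Asxl1 was 1.74-fold and 1.64-fold above Asxl2. These ratios are descriptions per length, with no test. Before division by length, Asxl1 minus Asxl2 was -0.30 (log2) in Trim71-cond and -0.39 in WT. The direction of that ratio thus rests on the merged exon lengths, 7444 bases for Asxl1 and 15941 for Asxl2.

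**Figure D1:**
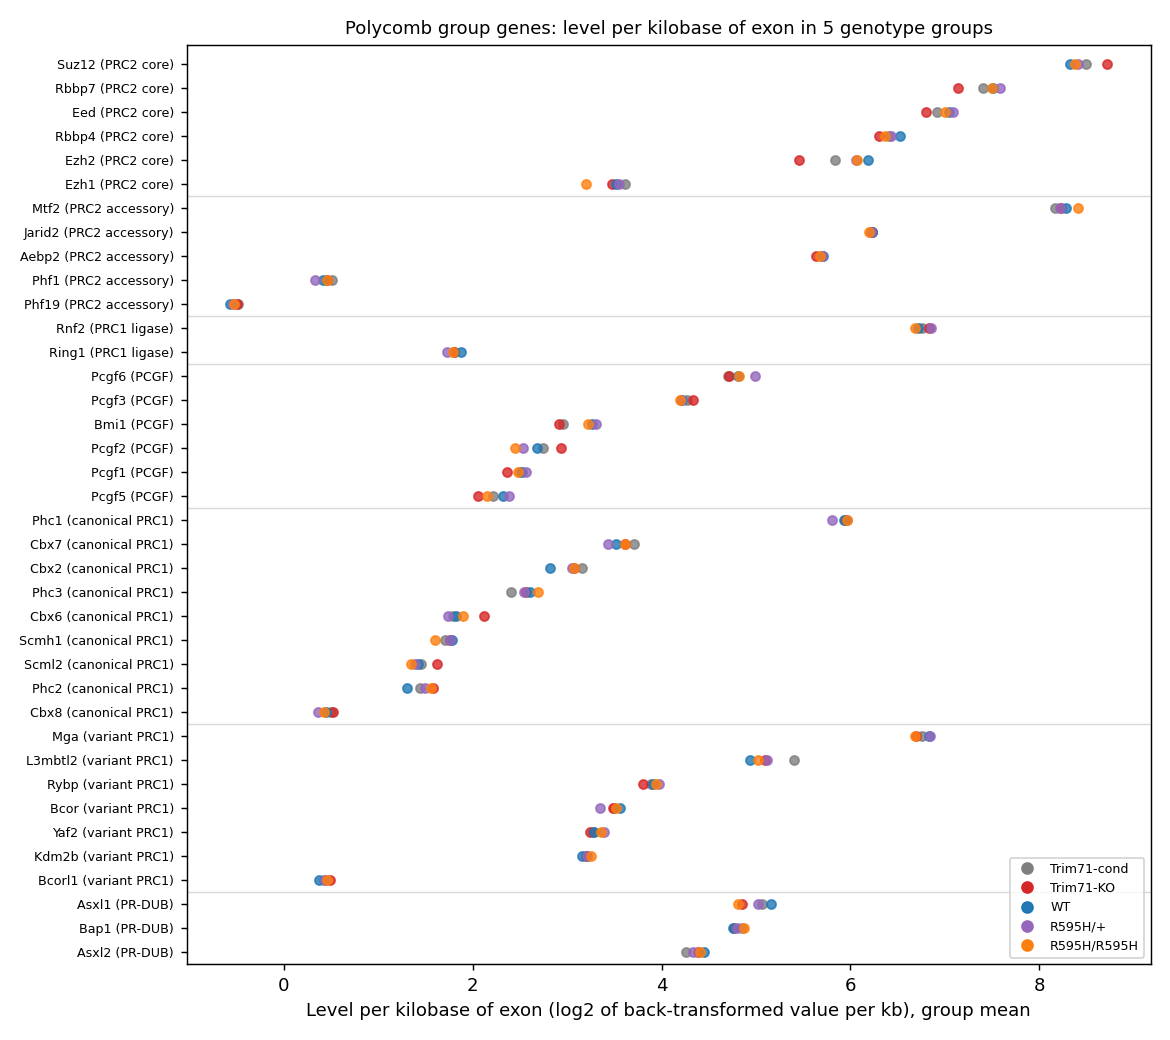
Level per kilobase of exon (log2 of the back-transformed group mean per kilobase, horizontal axis) of all 38 Polycomb group genes, ordered within each role by the WT level; colours give the 5 genotype groups. Suz12 and Mtf2 are the highest and Phf19 the lowest, and for nearly every gene the spread between groups is small beside the distance between genes.

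Testing required a mean of 3.32 (log2) or more, and 34 of the 38 genes passed it in each fit. Phf1, Phf19, Pcgf1 and Cbx8 did not, with overall means of 2.24, 1.81, 3.20 and 2.34, and were left untested. The lowest to pass were Ring1 at 3.50 and Bcorl1 at 3.53. Over the 20 libraries a tested Polycomb gene ranged by a median of 0.48, from 0.23 for Jarid2, which guides PRC2 to its targets, to 0.89 for Ezh2. The median range of all 9588 genes over the minimum was 0.54.

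**Figure D2:**
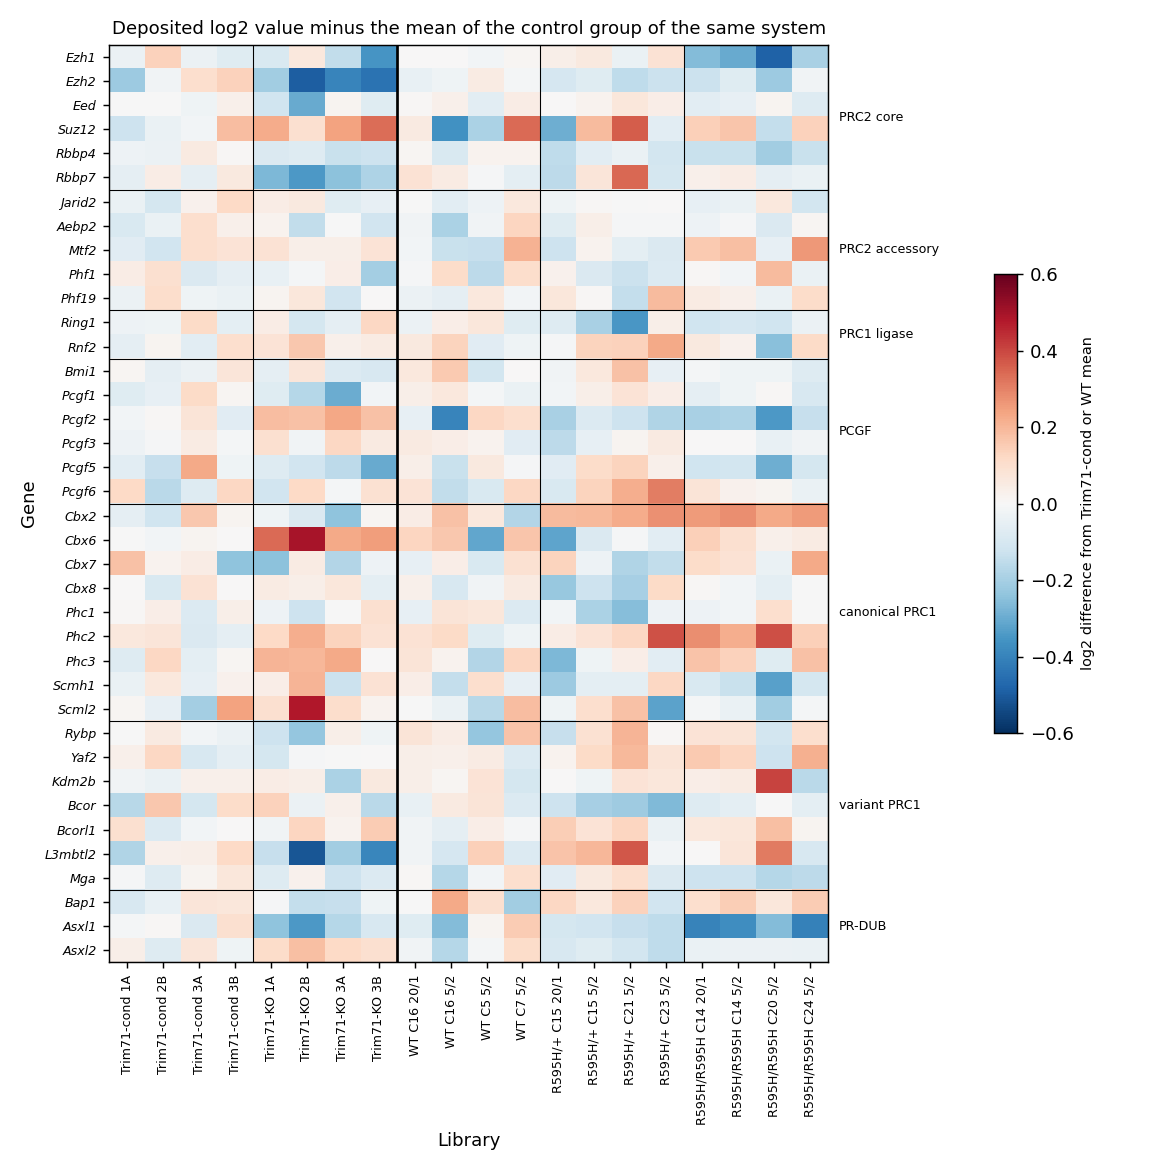
Deposited log2 value of each Polycomb group gene (rows, ordered by role) in each of the 20 libraries (columns), minus the mean of Trim71-cond for the conditional libraries and of the 3 WT clones for the clonal libraries; red is higher and blue lower. Ezh2, Rbbp7 and L3mbtl2 are blue and Suz12 and Cbx6 red across most of Trim71-KO, and Asxl1 is blue in every Trim71-KO and R595H/R595H library.

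After deletion of Trim71, 6 of the 34 tested Polycomb genes were called, 2 higher and 4 lower. That share of 17.6% stood beside a background of 18.6% of all genes called in the same comparison by limma (9.24% higher and 9.37% lower), so the share called was near that of genes at large. The genes lower in Trim71-KO were Ezh2, Rbbp7, L3mbtl2 and Asxl1, and those higher were Suz12 and Cbx6. The median difference over the 34 was -0.01, and their median size was 0.09 against 0.11 for all genes. Groups did not overlap for 7 of the 34, or 20.6%, against 20.8% of all genes tested, and 10 had an unadjusted p under 0.05, where 32.7% of all genes did.

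Some markers of cell identity changed in the same comparison. Of 7 stem cell markers tested, 3 were called higher by limma (Nanog by 0.39 ± 0.05, Tdgf1 by 0.30 ± 0.07 and Sox2 by 0.23 ± 0.06, SE) and 1 lower (Zfp42 by 0.20 ± 0.07). The summed level covers all 8 stem cell markers, the untested Utf1 included. It ran from 12.80 to 12.92 in Trim71-cond and from 12.98 to 13.10 in Trim71-KO. Of 3 trophectoderm markers tested, the keratin gene Krt18 fell by 0.63 ± 0.16 (SE; limma adjusted p = 0.011). With the untested Gata3 included, their summed level ran from 6.05 to 6.61 in Trim71-cond and from 5.79 to 6.27 in Trim71-KO. Of the other trophectoderm markers, Gata3 stood at 0.36 or less as a group mean and Cdx2 was not in the table used here. Neither of the 2 neural markers tested was called, and the 5 primitive endoderm markers were below the minimum level. The part of these markers in the Polycomb results was not tested.

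The PRC2 core held 3 of the 6 calls, among its 6 tested genes, and they did not go one way. That is 50%, beside 18.6% of all genes called. Shares over so few genes are coarse, and none was tested. Ezh2 stood at 8.36, 8.56, 8.68 and 8.72 in the Trim71-cond libraries 1A, 2B, 3A and 3B. In the Trim71-KO libraries of the same codes it stood at 8.37, 8.08, 8.18 and 8.13. The libraries of code 1A were level and the other 3 Trim71-KO libraries lay below every Trim71-cond library, so the groups overlapped only through 1A. Over all genes tested, same-code deviations from the group means correlated at -0.89 in 1A, against -0.12 to 0.13 in the other codes. The 1A pair thus departed from the mean difference in genes at large, not in Ezh2 alone. The mean fell by 0.39 ± 0.08 (SE, n = 4 against 4), or 1.31-fold, with a limma adjusted p of 0.0014. By code the difference was 0.01 in 1A, -0.47 in 2B, -0.50 in 3A and -0.58 in 3B. With both 1A libraries left out, an alternative chosen after the values were seen, Ezh2 fell by 0.52 (limma adjusted p = 3.76e-06).

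Rbbp7, a chaperone-like subunit that binds histones in PRC2 and other complexes, was lower at every code. It stood at 8.89, 8.99, 8.89 and 9.00 in Trim71-cond 1A, 2B, 3A and 3B and at 8.67, 8.60, 8.69 and 8.76 in Trim71-KO. The groups did not overlap, and the mean fell by 0.26 ± 0.05 (SE, n = 4 against 4; 1.20-fold; limma adjusted p = 0.0025). Its paralog Rbbp4 did not overlap either (lower by 0.11 ± 0.05, SE) but missed the threshold with a limma adjusted p of 0.12.

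Suz12 went the other way. Its values were 10.67, 10.76, 10.78 and 10.98 in Trim71-cond 1A, 2B, 3A and 3B, and 11.02, 10.89, 11.04 and 11.13 in Trim71-KO. Each Trim71-KO library exceeded the Trim71-cond library of its code, by 0.14 to 0.35, although Trim71-cond 3B lay above Trim71-KO 2B. The mean rose by 0.22 ± 0.06 (SE, n = 4 against 4; 1.17-fold; limma adjusted p = 0.012). Without both 1A libraries the difference was 0.18 with a limma adjusted p of 0.0507, and without Trim71-KO 3B it was 0.19 with a limma adjusted p of 0.062. The call was also lost when the spread was modelled without the trend and robust options (limma adjusted p = 0.065). Within a library, the level of Suz12 minus that of Ezh2, which no scaling of libraries can move, was 2.22 ± 0.09 in Trim71-cond and 2.83 ± 0.14 in Trim71-KO (SD, n = 4 each), without overlap. The pair was chosen with the values known, so its separation is a description and adds no support to either call. Neither Ezh1 (-0.13 ± 0.09, limma adjusted p = 0.30) nor Eed (-0.12 ± 0.06, limma adjusted p = 0.18) was called.

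Because Ezh2 and Suz12 belong to one complex and moved in opposite directions, their promoters are set side by side, 250 bases before to 50 after the annotated start, from RefSeq on GRCm38.p6. Capitals mark an E2F word. E2F factors drive many genes of DNA replication, and Ezh2 is a known E2F target.
Ezh2, chr6:47594981-47595280, minus strand: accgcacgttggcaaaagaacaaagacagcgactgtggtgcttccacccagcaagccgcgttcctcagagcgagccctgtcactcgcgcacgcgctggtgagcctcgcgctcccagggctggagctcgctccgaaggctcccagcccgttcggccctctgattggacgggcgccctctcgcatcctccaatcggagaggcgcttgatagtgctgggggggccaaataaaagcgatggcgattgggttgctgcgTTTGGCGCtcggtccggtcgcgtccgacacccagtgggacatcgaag
Suz12, chr11:79992856-79993155, plus strand: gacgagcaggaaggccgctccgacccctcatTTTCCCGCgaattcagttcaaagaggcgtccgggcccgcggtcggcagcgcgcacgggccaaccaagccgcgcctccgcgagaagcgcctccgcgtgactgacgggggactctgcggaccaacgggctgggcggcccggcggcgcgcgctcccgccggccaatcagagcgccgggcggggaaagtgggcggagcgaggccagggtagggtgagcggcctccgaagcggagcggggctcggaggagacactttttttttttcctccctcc

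The words searched were TTTGGCGC, TTTCCCGC, TTTCGCGC and TTTGCCGC on both strands. They occur in 744 of 32851 mouse promoter windows of this length, or 2.26%, and in 3 of the 47 windows found for 34 of the Polycomb genes, those of Ezh2, Suz12 and Phf19. In Ezh2 the word starts at base 4 counted from the transcription start, and in Suz12 at base -219. The E-box CACGTG, searched as well, was in 10 of the 47 windows (21.3%), against 7.15% of all windows. These were the windows of Bmi1, Pcgf2, Cbx6, Cbx8, Phc2, Phc3, Rbbp4, Bap1, Asxl2 and Bcorl1. In Trim71-KO genes of this group differed in both directions, for example Cbx6 by 0.33 and Rbbp4 by -0.11. A match describes letters and shows no binding.

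Some genes of DNA replication fell in the same comparison. Of 26 S phase genes tested, 0 were called higher, 14 were not called and 12 were called lower, or 46.2% against 9.37% of all genes called lower. Ccne1, which drives entry into S phase, fell by 0.80 ± 0.08 (SE; limma adjusted p = 8.15e-07), Uhrf1 by 0.49 ± 0.06 and the replicative helicase subunit Mcm3 by 0.41 ± 0.05. The summed level of the list ran from 13.31 to 13.40 in Trim71-cond and from 13.09 to 13.17 in Trim71-KO, and its part in the Ezh2 result was not tested.

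**Figure D3:**
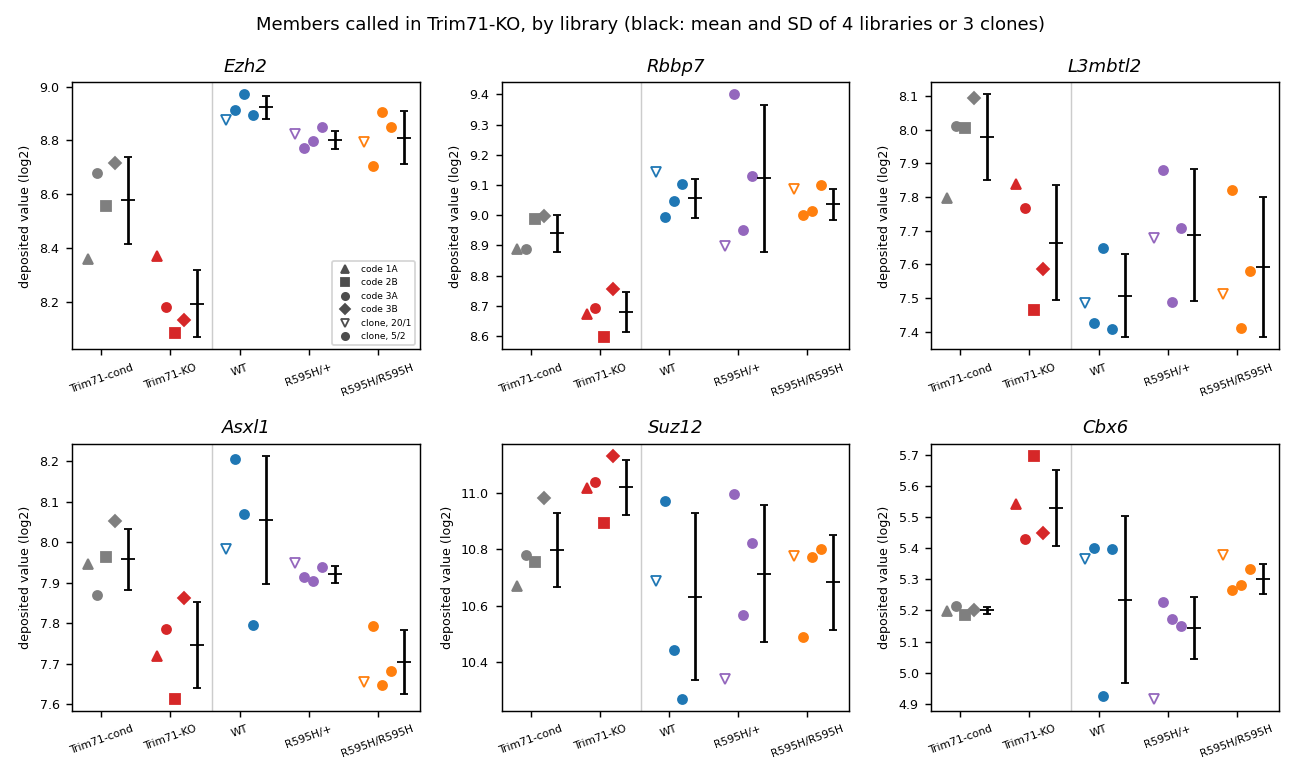
Deposited log2 values of the 6 Polycomb group genes called in Trim71-KO, one point per library in 5 groups; shapes give the replicate code or the date of a clonal library, and black bars show the mean and SD of 4 libraries or 3 clones. Rbbp7, Asxl1 and Cbx6 separate Trim71-KO from Trim71-cond fully, Ezh2 and L3mbtl2 at every code but 1A, and Suz12 spreads widely among the clones.

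The accessory subunits of PRC2 stayed close to their control levels. Jarid2 differed by less than 0.01 from 9.51 ± 0.10 (SD, n = 4) in Trim71-cond, Aebp2, a DNA-binding cofactor, by -0.06 ± 0.06 (SE), and Mtf2 by 0.06 ± 0.05 (SE). None of the 3 was called, and none had an unadjusted p under 0.05.

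Neither ligase of PRC1 was called. Rnf2 stood at 8.75, 8.81, 8.73 and 8.90 in Trim71-cond 1A, 2B, 3A and 3B and at 8.88, 8.96, 8.83 and 8.85 in Trim71-KO, a difference of 0.08 ± 0.06 (SE; limma adjusted p = 0.32). Ring1, near the minimum for testing, stood at 3.47, 3.48, 3.62 and 3.44 against 3.54, 3.40, 3.45 and 3.63. The groups overlapped for both genes.

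Among the 5 tested PCGF genes 0 were called, beside 18.6% of all genes. Pcgf2, which encodes MEL18, a subunit of canonical PRC1, stood apart most clearly. It was between 4.50 and 4.64 in Trim71-cond and between 4.74 and 4.80 in Trim71-KO, a difference of 0.19 ± 0.08 (SE) with a limma adjusted p of 0.099, and it passed the threshold (limma adjusted p = 0.048) when the spread was modelled without the trend and robust options. Bmi1, its paralog, differed by -0.04 ± 0.08 (SE; limma adjusted p = 0.77). Pcgf5 stood lower by 0.16 ± 0.09 (SE; limma adjusted p = 0.21), and Pcgf3 and Pcgf6 were within 0.07 of their control means.

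In canonical PRC1, 1 of 8 tested genes was called (12.5%, beside 18.6% of all genes). Cbx6, a chromodomain protein that reads the PRC2 mark, stood at 5.20, 5.19, 5.21 and 5.20 in Trim71-cond 1A, 2B, 3A and 3B. In Trim71-KO it stood at 5.54, 5.70, 5.43 and 5.45. Every Trim71-KO library lay above every Trim71-cond library, and the mean rose by 0.33 ± 0.08 (SE, n = 4 against 4; 1.26-fold; limma adjusted p = 0.0094). Of the exon bases of Cbx6, 5.31% are shared with Npcd on the same strand, and the sources used here do not say how such reads were counted.

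Of the other readers none was called. Cbx7 differed by -0.10 ± 0.09 (SE; limma adjusted p = 0.47) and Cbx2 by -0.08 ± 0.09 (SE; limma adjusted p = 0.55). Within a library the level of Cbx7 minus that of Cbx6 was 1.21 ± 0.18 in Trim71-cond and 0.78 ± 0.13 in Trim71-KO (SD, n = 4 each), without overlap. This pair, too, was chosen with the values known. Phc2 was higher without overlap (0.14 ± 0.08, SE; limma adjusted p = 0.23), Phc3 was higher by 0.16 ± 0.08 (SE; limma adjusted p = 0.15), and Phc1 differed by -0.02 ± 0.06 (SE). Scml2, a further partner of canonical PRC1, ranged from 4.07 to 4.53 within Trim71-KO and was not called.

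In the variant complexes, 1 of 7 tested genes was called (14.3%, beside 18.6% of all genes). L3mbtl2, a methyl-lysine reader of the PRC1 complex built on Pcgf6, stood at 7.80, 8.01, 8.01 and 8.09 in Trim71-cond 1A, 2B, 3A and 3B and at 7.84, 7.46, 7.77 and 7.59 in Trim71-KO. As for Ezh2, the 1A libraries were level (0.04) while the other codes differed by -0.54, -0.24 and -0.51. The departure of the 1A pair, seen in genes at large, is not particular to either gene. The mean fell by 0.31 ± 0.08 (SE, n = 4 against 4; 1.24-fold; limma adjusted p = 0.0097), and by 0.43 without both 1A libraries (limma adjusted p = 0.00037). Of its exon bases 17.2% are shared with Chadl on the other strand, and the sources used here do not say whether counting used strand. Mga, the DNA-binding scaffold of the same complex, differed by -0.06 ± 0.05 (SE; limma adjusted p = 0.36), and Pcgf6 by 0.02 ± 0.08 (SE). Rybp, Yaf2, Kdm2b, Bcor and Bcorl1 lay within 0.09 of their control means, and none was called.

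In PR-DUB 1 of 3 genes was called (33.3%, beside 18.6% of all genes). Asxl1, an activating partner of the deubiquitinase, stood at 7.95, 7.96, 7.87 and 8.05 in Trim71-cond 1A, 2B, 3A and 3B and at 7.72, 7.61, 7.79 and 7.86 in Trim71-KO. The groups did not overlap, though Trim71-KO 3B lay only just below Trim71-cond 3A. The mean fell by 0.21 ± 0.07 (SE, n = 4 against 4; 1.16-fold; limma adjusted p = 0.028). Its paralog Asxl2 was higher without overlap (0.13 ± 0.06, SE) but missed the threshold with a limma adjusted p of 0.12, and Bap1, the catalytic subunit, differed by -0.08 ± 0.07 (SE; limma adjusted p = 0.46). The Asxl1 call was lost under 5 of 15 other settings, among them without Trim71-KO 1A, Trim71-KO 2B, Trim71-cond 2B or Trim71-cond 3B (limma adjusted p from 0.057 to 0.093), and without both 1A libraries, where the difference was -0.21 with a limma adjusted p of 0.085.

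The R595H/R595H clones held 1 called Polycomb gene of the 34, or 2.94%, beside a background of 3.42% of all genes called by limma (1.23% lower). At an unadjusted p under 0.05 there were 6, where 21% of all genes passed. The called gene was Asxl1, one of the 6 called after deletion. It stood at 8.07, 8.21 and 7.89 in the WT clones C5, C7 and C16 and at 7.67, 7.79 and 7.65 in the R595H/R595H clones C14, C20 and C24. The groups did not overlap, and the mean fell by 0.35 ± 0.08 (SE, n = 3 against 3; 1.28-fold; limma adjusted p = 0.036). The call was lost under 8 of 17 other settings, with limma adjusted p-values from 0.062 to 0.15. Leaving out any one of R595H/R595H C14, R595H/R595H C24, WT C5, WT C7 or R595H/+ C15 ended it, as did equal library totals, the 5/2 libraries alone and the Y-linked mean as a covariate (difference -0.35, limma adjusted p = 0.095). Over the 17 settings the difference kept its sign and ran from -0.28 to -0.43. In the same comparison 0 of 7 stem cell markers and 1 of 3 trophectoderm markers, the keratin gene Krt8 (0.42 ± 0.11, SE; limma adjusted p = 0.049), were called, and the summed level of the trophectoderm list ran from 5.87 to 5.95 among WT clones and from 6.12 to 6.21 among R595H/R595H clones. Its part in the Asxl1 result was not tested.

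Asxl2 did not move with it in the clones (-0.04 ± 0.07, SE; limma adjusted p = 0.81). The level of Asxl1 minus that of Asxl2 within a library or clone was also lower in both systems than in the controls. It was -0.30 ± 0.13 in Trim71-cond and -0.64 ± 0.14 in Trim71-KO (SD, n = 4 each), without overlap. In the clones it was -0.39 ± 0.06 for WT, -0.40 ± 0.02 for the heterozygous and -0.70 ± 0.08 for the homozygous genotype (SD, n = 3 each), with R595H/R595H apart from both other genotypes. All pair differences given here, those of other genes included, were chosen with the values known and carry no test.

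**Figure D4:**
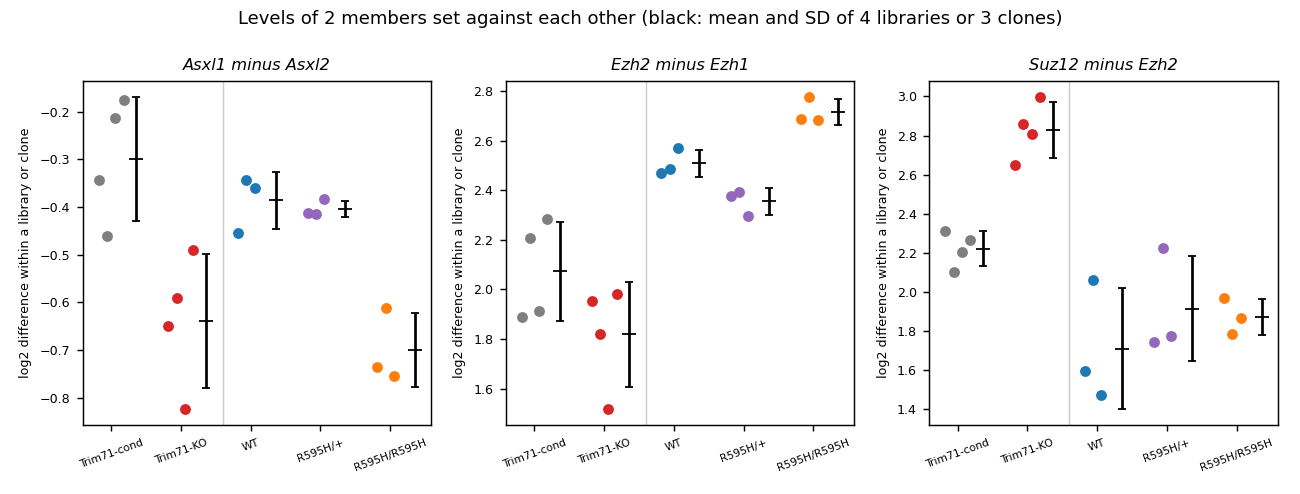
Deposited log2 level of one Polycomb gene minus that of a second within each library (Trim71-cond, Trim71-KO) or clone (WT, R595H/+, R595H/R595H), for Asxl1 minus Asxl2, Ezh2 minus Ezh1 and Suz12 minus Ezh2; black bars show the mean and SD. Asxl1 minus Asxl2 is lower in Trim71-KO (-0.64) and in R595H/R595H (-0.70) than in their controls, and Suz12 minus Ezh2 separates Trim71-KO (2.83) from Trim71-cond (2.22) and overlaps among the clonal genotypes.

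Of the methyltransferases, Ezh1 came nearest to a call in the clones. It stood at 6.40, 6.43 and 6.42 in WT C5, C7 and C16 and at 6.13, 5.93 and 6.22 in R595H/R595H C14, C20 and C24, without overlap. The difference was -0.32 ± 0.09 (SE, n = 3 against 3) with a limma adjusted p of 0.062. It passed the threshold when all 12 libraries were fitted with the clone as a random effect (limma adjusted p = 0.028). That fit takes both libraries of C14, which may be one. Ezh1 also passed without R595H/+ C21 (limma adjusted p = 0.046). Ezh2 stood at 8.97, 8.91 and 8.89 in those WT clones and at 8.82, 8.71 and 8.90 in the R595H/R595H clones, a difference of -0.11 ± 0.07 (SE; limma adjusted p = 0.37). The level of Ezh2 minus that of Ezh1 was 2.51 ± 0.05 for WT, 2.36 ± 0.05 for R595H/+ and 2.72 ± 0.05 for R595H/R595H (SD, n = 3 each), with no overlap between any of the 3 genotypes.

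Of the 34 genes, 8 had R595H/R595H and WT groups that did not overlap, or 23.5%, against 29.7% of all genes. Beside Asxl1 and Ezh1 they were Rbbp4 (-0.16), Pcgf5 (-0.17), Scmh1 (-0.18) and Mga (-0.15) on the lower side and Cbx2 (0.25) and Phc2 (0.26) on the higher side. Their limma adjusted p-values ran from 0.13 for Cbx2 to 0.31 for Scmh1, so none was called. The remaining catalytic subunits lay within their spread: Rnf2 at 8.69, 8.73 and 8.85 in WT C5, C7 and C16 against 8.80, 8.51 and 8.87 in R595H/R595H C14, C20 and C24, and Ring1 at 3.65, 3.51 and 3.58 against 3.47, 3.46 and 3.54.

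Suz12 and Cbx6, called after deletion, were among the genes that varied most between clones of one genotype. Suz12 ran from 10.44 to 10.97 among WT clones, from 10.57 to 10.99 among R595H/+ clones and from 10.49 to 10.79 among R595H/R595H clones. The 2 libraries of WT C16 alone differed by 0.42 for Suz12 and those of R595H/+ C15 by 0.48, the largest gap of any Polycomb gene in either clone. Cbx6 was 4.92 in WT C5 against 5.38 and 5.40 in C16 and C7. L3mbtl2 ran from 7.43 to 7.65 in WT and from 7.41 to 7.82 in R595H/R595H, and Rbbp7 reached 9.40 in R595H/+ C21 against 8.95 and 9.01 in the other R595H/+ clones. A change of the size seen after deletion in Suz12 (0.22) was smaller than the range within each clonal genotype.

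In R595H/+ clones 0 of the 34 genes were called against WT by limma, beside a background of 0% (0 of 9587 genes called, 734 or 7.66% at an unadjusted p under 0.05). Groups did not overlap for 5 of the 34, beside 12.5% of all genes. Cbx2 (0.23 ± 0.09, SE) and Bcor (-0.21 ± 0.08, SE), a corepressor of the variant complex built on Pcgf1, were the 2 with an unadjusted p under 0.05. Cbx2 stood at 4.97, 4.73 and 5.02 in WT C5, C7 and C16 and between 5.10 and 5.18 in R595H/+, below which lay every WT clone. In R595H/R595H it was between 5.14 and 5.18, but both comparisons share the WT clones. Asxl1 in R595H/+ stood at 7.90 to 7.94, between the other genotypes in its mean but within the range of WT (-0.13 ± 0.08, SE; limma adjusted p = 0.77).

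Between R595H/R595H and R595H/+ 0 of the 34 were called by limma, beside a background of 0.772%, with 5 at an unadjusted p under 0.05 against 1793 of 9587 genes (18.7%). Ezh1 was lower by 0.35 ± 0.09 (SE, n = 3 against 3; limma adjusted p = 0.072), without overlap, and passed the threshold with the clone as a random effect (limma adjusted p = 0.029). Asxl1 was lower without overlap by 0.22 ± 0.08 (SE; limma adjusted p = 0.19), as were Pcgf5 by 0.23 ± 0.09 and Mga by 0.16 ± 0.07. Krt18 was called higher in this comparison (0.57 ± 0.10, SE; limma adjusted p = 0.029), the 1 trophectoderm marker of 3, and 0 of 7 stem cell markers were called. Groups did not overlap for 10 of the 34 genes, beside 25.4% of all genes.

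**Figure D5:**
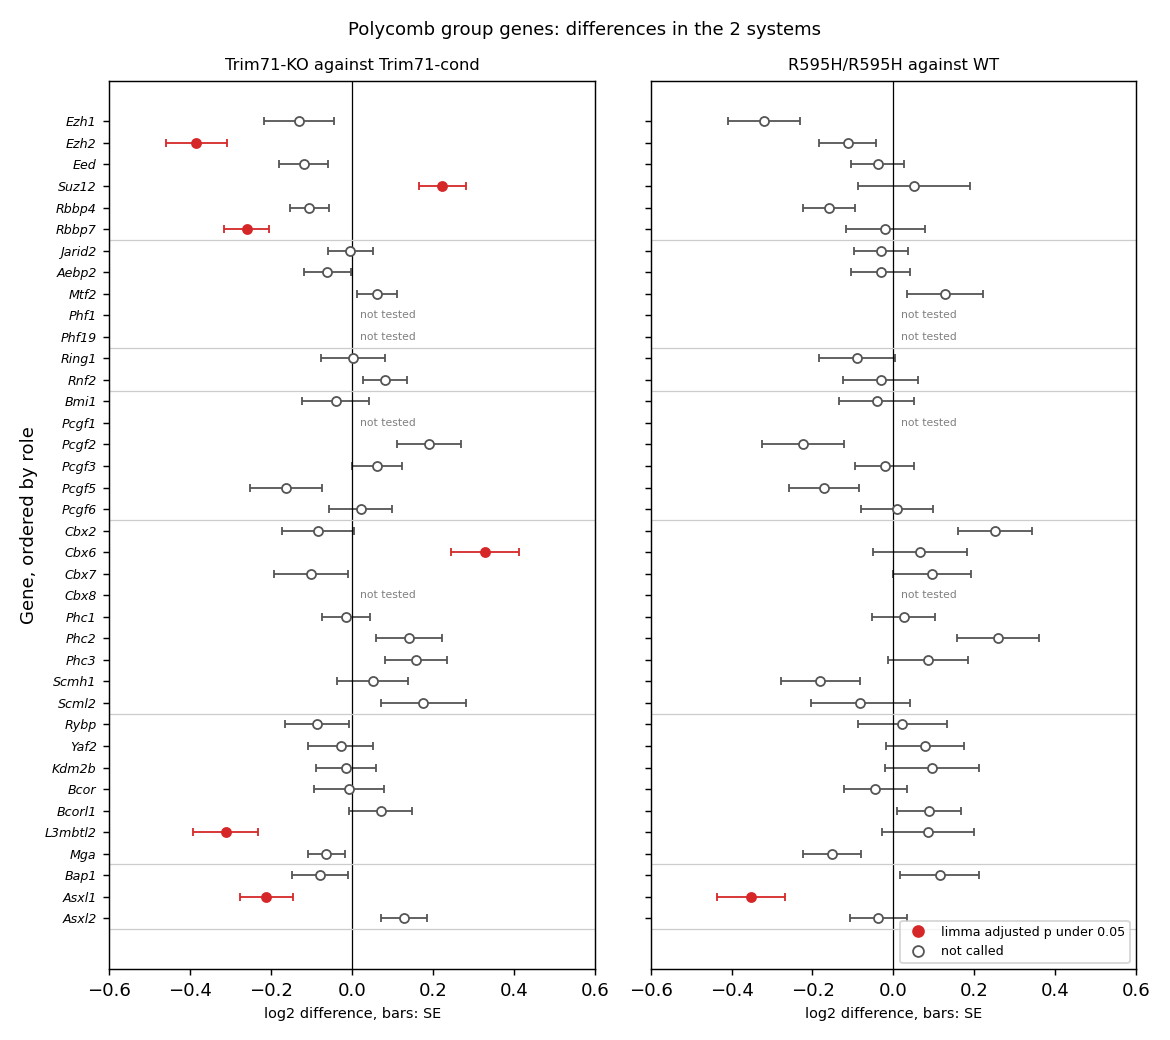
Log2 difference with its standard error for every Polycomb group gene, ordered by role, in Trim71-KO against Trim71-cond (left, 4 against 4 libraries) and R595H/R595H against WT (right, 3 against 3 clones); filled red points passed a limma adjusted p of 0.05. Asxl1 is the one gene filled in both panels, and Ezh2, Rbbp7, L3mbtl2, Suz12 and Cbx6 are filled on the left only.

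The difference between the deletion effect and the homozygous effect was tested directly in one fit of both systems, which also differ in starting cells and handling. Of the 34 genes 0 were called by limma, beside a background of 1.42%, and 5 had an unadjusted p under 0.05, as did 17.4% of all genes. The widest gap was that of Pcgf2, at 0.19 after deletion and -0.22 in the homozygous clones, neither called (a gap of 0.41 ± 0.13, SE; limma adjusted p = 0.081), which passed the threshold without WT C16 (0.53, limma adjusted p = 0.031). L3mbtl2 (-0.40 ± 0.14, SE; limma adjusted p = 0.14), Cbx2 (-0.34 ± 0.13, SE; limma adjusted p = 0.17), Ezh2 (-0.27 ± 0.11, SE; limma adjusted p = 0.19) and Rbbp7 (-0.24 ± 0.11, SE; limma adjusted p = 0.25) followed. Without both 1A libraries Ezh2 passed it (-0.40 ± 0.10, SE; limma adjusted p = 0.032). Among the markers, Krt18 (-0.95 ± 0.21, SE), Krt8 (-0.71 ± 0.17, SE) and Tdgf1 (0.50 ± 0.11, SE) were called in this test. Across the 34 genes the effects of the deletion and of the homozygous change had a Pearson r of 0.24 and a Spearman rho of 0.21, and 19 had the same sign; across 9531 genes r was 0.37. Genes are not independent replicates, and no p is given.

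Lin28a, which blocks maturation of the let-7 microRNAs, was lower in both systems, by 0.89 ± 0.12 (SE) in Trim71-KO and by 0.65 ± 0.11 (SE) in R595H/R595H (limma adjusted p = 7.46e-05 and 0.0091). In R595H/+ clones it stood at 6.35 to 6.55, also below the WT clones at 6.79 to 6.93, but it was not called there. It was named after its values were seen. The let-7 seed match was therefore looked up in the 3' UTRs of the Polycomb genes. The mature let-7a, from RefSeq, is shown with its seed (bases 2 to 8) in capitals, and each site on GRCm38, within GENCODE vM21 3' UTRs, with the match CTACCTC in capitals.
mmu-let-7a-5p: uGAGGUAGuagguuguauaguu
Mtf2, chr5:108104485-108104514, plus strand: ccagtgcaaacgaaaCTACCTCggctagca
Pcgf3, chr5:108502010-108502039, plus strand: gtaaatattacctttCTACCTCagaacaca
Pcgf3, chr5:108506742-108506771, plus strand: gagatctgcctgcctCTACCTCcccaagtc
Cbx2, chr11:119029273-119029302, plus strand: ggcttcctgctgattCTACCTCtctgggcc
Phc3, chr3:30903999-30904028, minus strand: tgcactgagtcccatCTACCTCcaacccca
Kdm2b, chr5:122934759-122934788, minus strand: tgtgacccagcgctcCTACCTCactcagga
Asxl2, chr12:3497803-3497832, plus strand: tttacagagatctgcCTACCTCtctgccta

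A match was present in 6 of 38 Polycomb genes, or 15.8%, against 9.76% of 21793 genes with an annotated 3' UTR. The median 3' UTR was longer in the Polycomb genes, 1945 against 1033 bases. None of the 6 genes with a match was called by limma in any of the comparisons. Of all genes, 18.6% were called in Trim71-KO and 3.42% or fewer in each other comparison. None of the 6 genes called in Trim71-KO has a match, beside the 9.76% of all genes that do. Counts this small decide nothing, and a part of let-7 was not tested. In Trim71-KO the differences of the genes with a match were 0.06 for Mtf2, 0.06 for Pcgf3, -0.08 for Cbx2, 0.16 for Phc3, -0.01 for Kdm2b and 0.13 for Asxl2. A seed match describes letters and shows no regulation.

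Genes outside the 38 that work with or against the Polycomb complexes were read from 2 further lists. Of 26 other Polycomb-associated genes tested, 4 (15.4%) were called higher and 0 lower in Trim71-KO. Of all genes 18.6% were called, 9.24% higher and 9.37% lower. The 4 on this list were Csnk2a1, a kinase subunit found with variant PRC1 (0.22 ± 0.06, SE), the forkhead factor Foxk1 (0.27 ± 0.09), Lcorl, a cofactor of PRC2 (0.24 ± 0.08), and the deacetylase Hdac2 (0.18 ± 0.06). Of 26 genes of enzymes that oppose Polycomb, such as the trithorax-type methyltransferases, 1 was called higher (Rbbp5, 0.24 ± 0.06) and 3 lower (Ash2l by 0.19 ± 0.05, Kmt2c by 0.23 ± 0.07 and Uty by 0.40 ± 0.09). Uty is Y-linked, and Ddx3y, also Y-linked, fell by 0.40 ± 0.07 in the same comparison. In R595H/R595H against WT 0 genes of either list were called.

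Known PRC2 targets could hardly be read, since 21 of the 54 listed were in the table used here and 3 passed the minimum level. Olig2, a neural transcription factor, rose by 0.50 ± 0.10 (SE; limma adjusted p = 0.0013) in Trim71-KO. In the clones Olig2 stood at 5.52 to 5.62 in R595H/R595H, 5.49 to 5.53 in R595H/+ and 4.85 to 5.40 in WT. It was not called there. Meis2, a homeobox gene, was higher by 0.45 ± 0.12 (SE; limma adjusted p = 0.047) in R595H/R595H than in WT. The R595H/+ clones, at 3.67 to 4.15, also lay above the WT clones, at 3.35 to 3.54, though Meis2 was not called there. Both clonal comparisons share the WT clones. In Trim71-KO Meis2 differed by -0.007 and was not called. Eomes, also tested, differed by 0.07 in Trim71-KO and by -0.11 in R595H/R595H against WT, and was called in neither. Histone marks were not measured.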

How the data were processed

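The authors deposited one table of values on a log scale, 1 column per library, in no unit that the table names; DESeq2, STAR and CASAVA 1.8 are named in the submitters' processing notes. How reads were counted and transformed, and on which build and annotation, is not given in the sources used here. Values, from -0.65 to 18.0 with 1.58% below 0, look like regularized log2 values, in which low genes are drawn toward their mean, so folds of low genes may be understated. No count or depth can be recovered, and no interval that needs one is given.

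From there limma 3.58.1 in R 4.3.3 (lmFit, eBayes with trend and robust) was fitted across all genes whose mean reached 3.32 (10 before logs), and the call threshold was an adjusted p of 0.05 (Benjamini-Hochberg). The conditional fit held 8 libraries. The clonal fit held 9 clone values, with the libraries of a clone averaged. Another fit held both. Scripts were tested on simulated data.

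The members and lists were chosen with earlier results of these data known, so nothing was tested over a list. All Polycomb genes were eligible to be named, with library values for the called ones and the catalytic subunits, and up to 4 called genes per direction of each other list. Alternatives were another spread model, other filters and scalings, each library or clone left out, replicate and day blocks, the clonal libraries of one date, the clone as a random effect and a Y-linked covariate. The day labels pair the conditional libraries, 3A and 3B sharing a day. Same-code deviations from the group means correlated at -0.89 (1A), -0.09 (2B), -0.12 (3A) and 0.13 (3B). Dates of clones came from the sample titles. Positions are from GENCODE vM21 (GRCm38), where all 38 symbols were found once, and promoters from RefSeq, which gave 47 for 34 of them. Merged exon length stands for gene length, and paralogs or overlapping genes may share reads.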

Additional observations from a re-analysis of the deposited data

Results flagged for a closer look

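Of 78 groups of 4 conditional libraries checked, 5 held a library far from the other 3, a gap above Dixon's 95% critical value as a share of the group's range; chance flags about 1 in 20 groups. Phf19 in Trim71-cond stood at 1.95 in 2B against 1.80 to 1.82 in the others (ratio 0.911). Pcgf2 in Trim71-KO stood at 4.80 in 3A against 4.74 to 4.75 (0.840). Phc3 stood at 6.54 in Trim71-KO 3B against 6.73 to 6.76 (0.876), and Yaf2 at 4.07 in Trim71-KO 1A against 4.17 to 4.18 (0.929). Kdm2b stood at 6.46 in Trim71-KO 3A against 6.69 to 6.71 (0.903). Phf19 was below the minimum level and untested, and the other genes were called in no comparison.

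Trim71 itself differed between the systems, lower after deletion and higher in the homozygous clones, with a difference of effects of -2.09 (limma adjusted p = 8.07e-17). For the Polycomb genes no such difference was called by limma in the fit of all libraries and clones.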

How the results depend on the processing

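Ezh2, Rbbp7, L3mbtl2 and Cbx6 were called under all 15 other settings tried for the deletion comparison and without both 1A libraries, and no member changed its direction while called. With the replicate block 6 members and 1392 genes were called after deletion, and with the day block 6 and 1399. The replicate block lowered the genes called between the systems from 136 to 67. For R595H/R595H against WT, genes called were 157 with equal totals, 191 with the 5/2 libraries only and 134 with the Y-linked covariate, with 0 members in each. The random clone effect, with both C14 libraries in the fit, gave 2 members there and 1 against R595H/+. For R595H/R595H against R595H/+, genes called were 116 with no filter, 19 with equal totals, 213 with the random effect and 3 with the Y-linked covariate. Between the systems the 5/2 libraries gave 83 genes, and leaving out both 1A libraries, chosen after seeing the data, gave 1 member. Leaving out one library or clone gave 67 (R595H/R595H C14) to 541 (R595H/+ C21) genes and 0 to 2 members for R595H/R595H against WT, 7 (R595H/R595H C14) to 80 genes against R595H/+, 40 (WT C7) to 225 (R595H/+ C21) genes and 0 to 1 members between the systems, and 1291 to 1634 genes and 5 to 6 members after deletion. The causes were not tested. Depth is unknown, and 3 clones or 4 libraries a group limit the precision.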
